A study of Rattus norvegicus with 12 samples.

Results

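The drug and aldehyde metabolising enzymes on these arrays were the cytochromes P450, the UDP-glucuronosyltransferases, the sulfotransferases and the aldehyde dehydrogenases. Members were all probe sets annotated with a single gene symbol that begins with Cyp, Ugt, Sult or Aldh followed by a digit, leaving out Cyp51, an enzyme of sterol synthesis. The rule took 123 of 8740 probe sets and 76 of the 4736 genes named by 1 symbol, and it used no measured value. A further 32 enzyme probe sets that name several symbols and 5 for Cyp51 were not members.

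The arrays carried RNA of CC531, a rat colon carcinoma cell line grown in culture. One group was treated with 4.5 mM butyrate, a fermentation product of the colon's bacteria and an inhibitor of histone deacetylases, and was sampled after 2, 6, 12, 16 and 24 h. A second group was treated with 3 mM aspirin, a cyclooxygenase inhibitor, and was sampled at the same 5 times. Untreated cells were sampled after 2 and 24 h. Each treatment and time had 1 array, so that the times of a group served as its replicates (n = 5 with butyrate, n = 5 with aspirin and n = 2 untreated). All cells were of a single line, and the labels do not say whether separate cultures were used. P-values therefore measure the spread between these arrays only, which may be technical. In the comparisons with untreated cells that spread also includes change over the hours, since hours were not in the fit. The untreated group had no array at 6, 12 or 16 h.

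Cytochromes P450 insert an oxygen atom into drugs, steroids and fatty acids. Those in the endoplasmic reticulum take their electrons from the reductase Por. Glucuronosyltransferases and sulfotransferases then join a sugar acid or a sulfate to the product so that it can be excreted, and aldehyde dehydrogenases oxidise reactive aldehydes to acids. Liver is the main site of these reactions, and the epithelium of the gut holds a smaller set of the enzymes that acts on what is absorbed from food.

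Values were deposited as linear intensities that fall below 0 where a probe set gave no signal over its background. On each array the background limit was taken as the size of the 1st percentile of all non-control values, which ran between 396.9 and 651.3 and was highest on the untreated arrays (651.3 at 2 h and 587.6 at 24 h). A probe set was called above background where it exceeded that limit. Between 28.8% and 37.0% of all probe sets were above background on an array, and 8 to 19 of the 123 enzyme probe sets were. The 12 arrays had been scaled to 1 level, with trimmed means between 1001.52 and 1002.08. Of the colon epithelium markers 11 genes were on the array, and Krt8, Krt18, Krt19, Epcam, Cldn3, Cldn7 and Lgals4 were above background on all 12 arrays, while Cdx1 and Krt20 were above it on none. Of 15 hepatocyte markers none was above background on all 12 arrays and 13, among them Alb, Apoa1 and Ttr, were above it on none. Of the other lists, Acta2 alone among 8 fibroblast and smooth muscle genes was above background on all 12 arrays, and all 6 blood genes and all 3 endothelial genes on the array were above it on none. The Acta2 signal came from a single probe set, whose suffix marks matches to a gene family. Its other probe sets were above background on no array.

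Most of the enzymes gave no signal above background in these colon cells. Of the 123 member probe sets, 5 (4.07%) were above background on all 12 arrays, 16 (13.0%) on some arrays and 102 (82.9%) on none, and 54 lay on every array at or under the intensity floor of 90.91 set before the logarithm. Over all 8740 probe sets the shares were 23.2% on all 12 arrays, 21.0% on some and 55.8% on none. The members reached above background on at least 1 array in 19 of 76 genes.

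**Figure D1:**
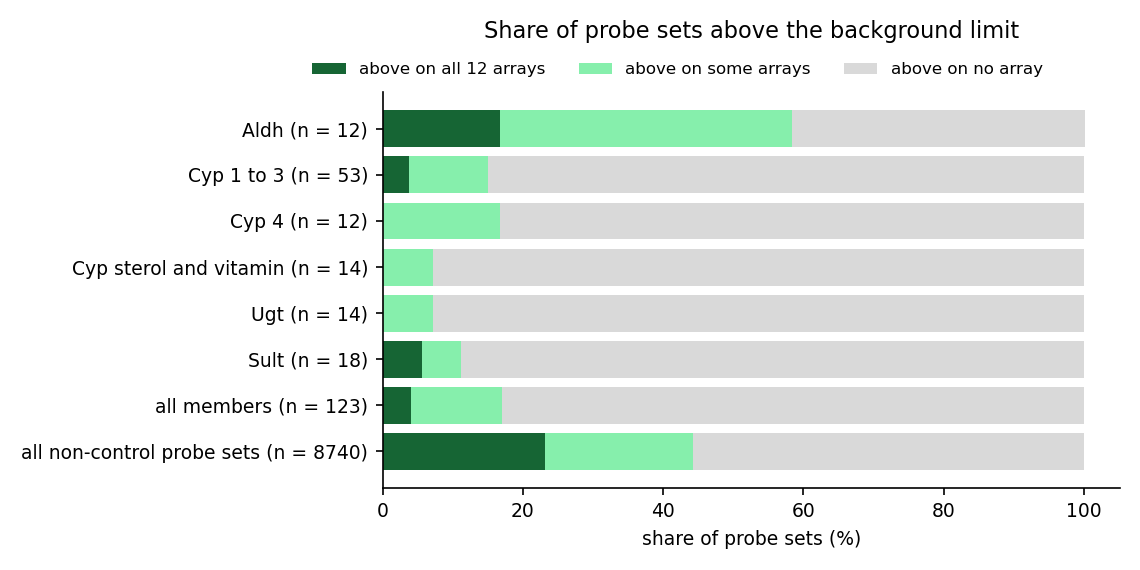
Share of probe sets (%) above the background limit on all 12 arrays, on some arrays and on no array, for each enzyme family, for all 123 members and for all 8740 non-control probe sets. The aldehyde dehydrogenases reach 16.7% on all 12 arrays and 41.7% on some, and every other family has more than 80% above background on no array.

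The aldehyde dehydrogenases were the family most often above background. Of their 12 probe sets 2 were above it on all 12 arrays and 5 on some (41.7%), which left 5 on none. Of the 53 probe sets of the P450 families 1 to 3, the classical drug-metabolising families, 2 were above background on all arrays and 6 on some. The 12 probe sets of family 4, whose enzymes hydroxylate fatty acids, had 0 above on all and 2 on some, and the 14 for the sterol, bile acid and vitamin P450s had 0 on all and 1 on some. The 18 sulfotransferase probe sets had 1 above on all and 1 on some, and the 14 glucuronosyltransferase probe sets had 0 on all and 1 on some.

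The genes above background on all 12 arrays were Aldh2, Aldh7a1, Cyp3a9, Cyp2d4 and Sult2a2, each on 1 probe set. Aldh7a1, which oxidises an aldehyde of lysine breakdown, read 2558.2, 2605.0, 2887.5, 2240.3 and 2508.4 with butyrate, 2933.3, 2990.8, 2993.8, 3408.4 and 2973.5 with aspirin, and 1599.7 and 2754.7 in untreated cells on its brighter probe set, in order of hours. All 5 aspirin arrays lay above both untreated arrays and above all 5 butyrate arrays. The other probe set of Aldh7a1 was above background on 11 arrays and reached only 562.0 in untreated cells at 2 h.

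Cyp2d4, a P450 of family 2 known from rat brain, read 779.8, 1478.2, 1311.0, 1090.3 and 1481.6 with butyrate, 899.8, 705.9, 1016.3, 981.9 and 891.6 with aspirin, and 1176.2 and 614.2 in untreated cells. The 3 groups overlapped. The other Cyp2d4 probe set was at or under the floor on all 12 arrays. Sult2a2, a sulfotransferase of steroid and bile acid hydroxyl groups, read 830.7, 1084.6, 687.3, 827.2 and 709.2 with butyrate, 693.0, 556.1, 919.5, 1094.7 and 999.2 with aspirin, and 687.0 and 1263.8 in untreated cells, again with overlapping groups. Both other Sult2a2 probe sets were at or under the floor on all 12 arrays. Sult2a2 has close relatives among the sulfotransferases. Of all members, 48 probe sets carry the suffix that marks matches to related transcripts, and 14 more are marked as matching a gene family, so that their signal may be shared between relatives. The Cyp2d4 probe set above background carries the first mark. The Sult2a2 probe set above background carries neither, and both other Sult2a2 probe sets carry the family mark.

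A further set of genes sat close to the limit. Cyp2a1, a steroid hydroxylase of rat liver, was above background on 11 arrays, with values between 515.3 and 1206.1. Cyp27b1, which makes the active form of vitamin D, was above it on 10 arrays, with 224.6 as its lowest value and 1046.5 as its highest. Cyp4f6 was above background on 9 arrays. Aldh6a1, an enzyme of valine breakdown, and Sult5a1 were above it on 8 arrays each, and 1 probe set of Cyp4a8 on 6.

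Aldh5a1, which oxidises succinate semialdehyde, Cyp2b2, the phenobarbital-inducible P450 of rat liver, and Ugt2b were above background on 3 arrays each. Cyp2b15, Cyp2e1 and Cyp3a23-3a1 exceeded the limit on 1 array each. Several well known inducible enzymes were above background on no array. They included Cyp1a1, Cyp1a2 and Cyp1b1, which the aryl hydrocarbon receptor induces, Aldh1a1 and Aldh1a2, which make retinoic acid, Aldh3a1, the phenol sulfotransferase Sult1a1, and Cyp24a1, which inactivates vitamin D.

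**Figure D2:**
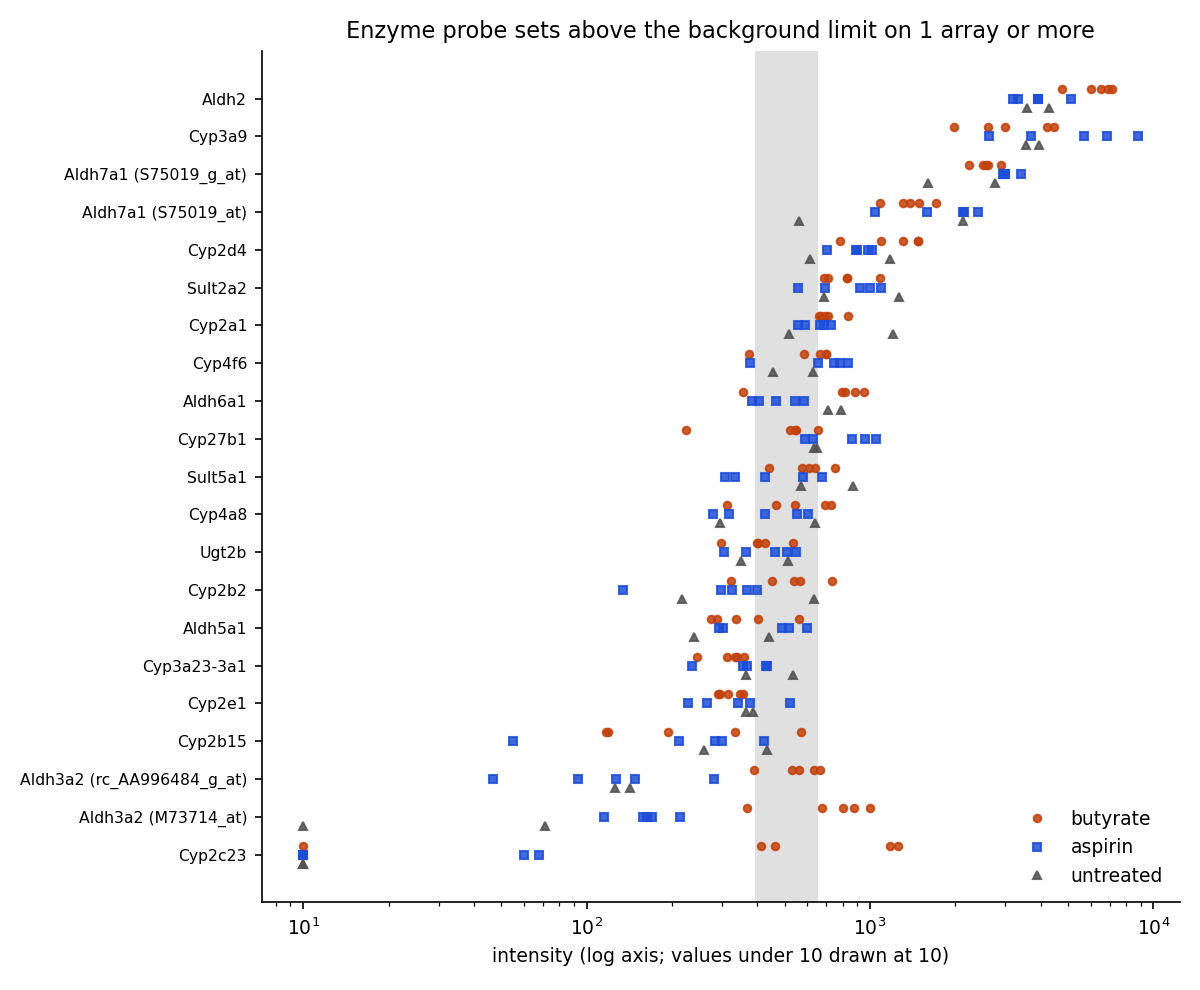
Intensity (log axis) of the 21 enzyme probe sets that were above the background limit on at least 1 of the 12 arrays. Each point is 1 array, coloured by treatment, and the grey band spans the limits of the arrays (396.9 to 651.3). Brightness cannot be compared between probe sets. The aspirin and untreated points of Cyp2c23 and of both Aldh3a2 probe sets all lie below the band, and their highest butyrate points lie above it.

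For the tests, values under the floor were raised to it before log2, and the dimmest 30% of probe sets by mean log2 were not tested. Of the members 62 probe sets of 50 genes passed and 61 did not, and p-values were adjusted (Benjamini-Hochberg) over all 6118 probe sets tested with limma, at a threshold of 0.05.

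Butyrate was compared with untreated cells to ask which enzymes differ under the fatty acid. Higher levels with butyrate were called for Aldh3a2, on 2 of its probe sets, and for Aldh2 and Cyp2c23, and no enzyme was called lower. These 4 of 62 member probe sets stand beside 11.7% of all probe sets tested (7.78% higher and 3.92% lower). At an unadjusted p under 0.05, 6 members and 28.8% of all probe sets passed. The median log2 change of the tested members was -0.00465, and that of all probe sets tested was 0.000854. Of the 10 aldehyde dehydrogenase probe sets tested 3 rose, of the 25 in P450 families 1 to 3 1 rose, and of the 6 in P450 family 4, the 7 sterol and vitamin P450s, the 7 glucuronosyltransferases and the 7 sulfotransferases none passed. In bulk RNA, fewer cells of a type and less RNA per cell cannot be told apart.

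Aldh3a2 is the fatty aldehyde dehydrogenase, which oxidises long-chain aldehydes at the endoplasmic reticulum. RefSeq places the gene on chromosome 10, minus strand, at chr10:46427789-46448449 of the rat build GRCr8. The 136 bases just before the annotated gene, at chr10:46448450-46448585, are shown 5′ to 3′ because 2 of its probe sets were called higher with butyrate than with aspirin or no treatment. The capitals mark a GC box (GGGCGG, read on the opposite strand) and the core of the xenobiotic response element (GCGTG).
Aldh3a2: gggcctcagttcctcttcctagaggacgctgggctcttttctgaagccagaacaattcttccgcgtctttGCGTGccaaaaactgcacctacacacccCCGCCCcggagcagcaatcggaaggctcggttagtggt
Both strands were searched for these motifs and for the CCAAT box, the TATA box (letters TATAAA) and the nuclear receptor hexamer (letters AGGTCA), and no motif contains another. Over windows of this length, 14.6% of 33469 rat promoters held the GC box and 14.2% held the response element core. The CCAAT box, which 19.4% held, the TATA box, which 7.08% held, and the hexamer, which 7.63% held, were not in this window.

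The probe set M73714_at for Aldh3a2 read 367.6, 802.2, 998.1, 875.4 and 678.4 after 2, 6, 12, 16 and 24 h of butyrate, 157.7, 114.9, 163.1, 213.6 and 170.3 after the same hours of aspirin, and 1.1 and 71.4 in untreated cells at 2 and 24 h. Every butyrate array was higher than every aspirin and untreated array, and the 4 butyrate arrays between 6 and 24 h exceeded their background limits. The fitted log2 change from untreated cells was 2.96 ± 0.38 (SE, limma adjusted p = 0.000644). Both untreated values lay at the floor, so the size depends on it, being 1.95 with the floor at 182.2 and 5.35 with the floor at 4.2, both called, and the SE does not cover this choice. The fold was given as a bound, at least 1.14-fold higher with butyrate when the untreated arrays are set at the lowest level above background.

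The probe set rc_AA996484_g_at for Aldh3a2 read 389.2, 559.8, 529.9, 663.8 and 632.7 with butyrate, 46.6, 126.3, 93.0, 147.9 and 280.5 with aspirin, and 126.2 and 142.3 in untreated cells. The butyrate arrays again lay above all others. The log2 change from untreated cells was 2.03 ± 0.41 (SE, limma adjusted p = 0.00874). No fold bound above 1 could be given for it, since the untreated limits were as high as the butyrate values. The third Aldh3a2 probe set, rc_AA996484_at, was under the limit on all 12 arrays, with values between 15.3 and 227.9, and was not called. Leaving out each array in turn, M73714_at was called every time, and rc_AA996484_g_at every time but without the 2 h untreated array. With the 2 and 24 h arrays alone neither was called (adjusted p = 0.51 for both).

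Aldh2 is the mitochondrial enzyme that oxidises acetaldehyde, and RefSeq places it at chr12:40610244-40643220 of GRCr8. Its intensities were 6036.1, 4747.2, 6934.4, 7145.2 and 6505.2 with butyrate, 3330.0, 3194.6, 3898.7, 3900.5 and 5104.3 with aspirin, and 3573.9 and 4262.1 in untreated cells. All 5 butyrate arrays were above both untreated arrays, and the highest aspirin array, at 24 h, exceeded the lowest butyrate array, at 6 h. Aldh2 averaged 6274 ± 953 with butyrate and 3918 ± 487 in untreated cells (SD, n = 5 and n = 2). The log2 change was 0.67 ± 0.21 (SE, limma adjusted p = 0.0494), a 1.59-fold difference at the edge of the threshold. The call was lost in 15 of 21 alternative settings, with adjusted p between 0.0331 and 0.51.

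**Figure D3:**
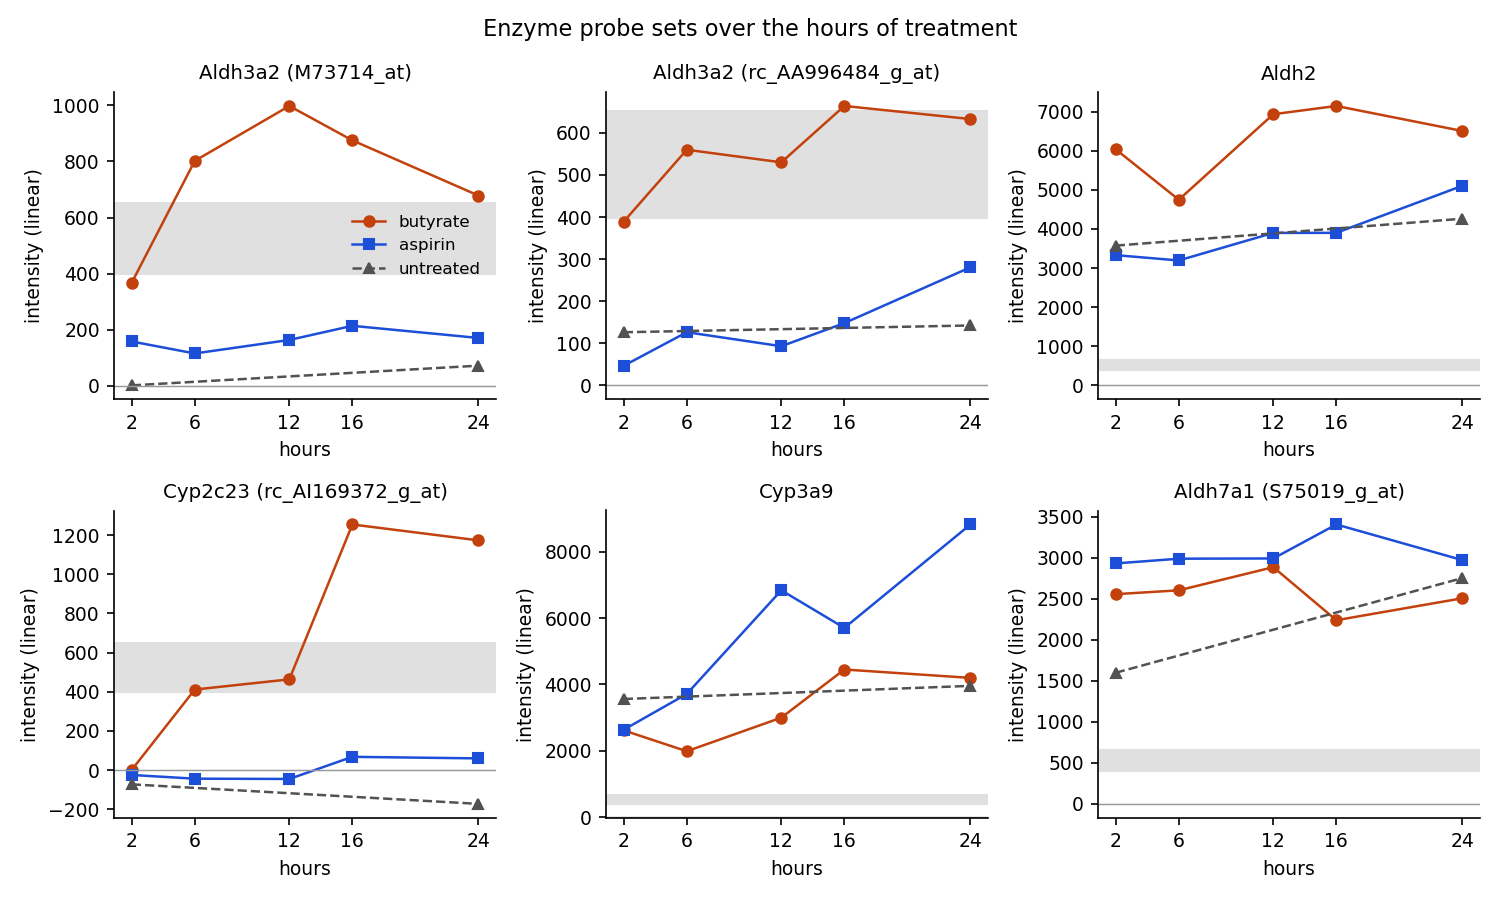
Linear intensity against hours of treatment for 6 enzyme probe sets on arrays with butyrate (orange circles), aspirin (blue squares) and untreated cells (grey triangles), 1 array per point, with the background limits of the arrays as a grey band. Both Aldh3a2 probe sets are higher with butyrate at all 5 hours, Cyp2c23 climbs to 1173.1 at 24 h of butyrate, and Cyp3a9 reads 4195.0 at 24 h of butyrate against 8820.3 at 24 h of aspirin.

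Cyp2c23 is a P450 epoxygenase of arachidonic acid known from rat kidney, placed by RefSeq at chr1:252838427-252863081 of GRCr8 on the minus strand. The 236 bases before the annotated gene, at chr1:252863082-252863317, are shown because its level moved with the hours of butyrate. None of the 5 motifs above is in this window, so no base is in capitals.
Cyp2c23: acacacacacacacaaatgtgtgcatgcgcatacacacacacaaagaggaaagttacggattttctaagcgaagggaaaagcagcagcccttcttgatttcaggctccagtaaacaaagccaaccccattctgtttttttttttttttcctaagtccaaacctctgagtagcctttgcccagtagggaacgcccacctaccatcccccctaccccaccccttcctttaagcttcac

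The probe set rc_AI169372_g_at for Cyp2c23 read 1.2, 411.4, 463.3, 1254.2 and 1173.1 after 2, 6, 12, 16 and 24 h of butyrate, -24.9, -43.8, -45.2, 67.7 and 59.8 after the same hours of aspirin, and -72.8 and -172.4 in untreated cells. It was above background on the butyrate arrays at 12, 16 and 24 h and on no other array. The 2 h butyrate array was at the floor together with all aspirin and untreated arrays. The log2 change from untreated cells was 2.40 ± 0.72 (SE, limma adjusted p = 0.0467), it was lost in 18 of 21 alternatives (adjusted p between 0.000567 and 0.583), and no fold bound above 1 could be given. All aspirin and untreated arrays being at the floor, the probe set passed the filter on dim values only through its butyrate arrays, the group in which it was then called higher, so the call is a description and not support. With no filter the change from untreated cells was not called (adjusted p = 0.137).

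Over the 5 butyrate hours Cyp2c23 rose by 1.05 ± 0.12 log2 units per doubling of the hours (SE, limma adjusted p = 0.00312). The fit shared 1 spread between the drugs, and the aspirin arrays, all at the floor, added none to it. The SE and p of this slope are therefore smaller by construction. As the probe set entered the test only through its butyrate arrays, the call is a description and not support. With no filter the slope was also called (limma adjusted p = 0.0121), with the same floored arrays in the fit. Cyp2c23 was the 1 member with a called slope under butyrate, beside 8.99% of all probe sets tested (4.79% rising and 4.2% falling). At an unadjusted p under 0.05, 7 members passed (24.1% of all). Without the 2 h butyrate array the slope was no longer called (adjusted p = 0.14). The slope with butyrate exceeded that with aspirin by 1.05 ± 0.17 log2 units per doubling (SE, limma adjusted p = 0.032), a difference called for 1.73% of all probe sets. That call was lost on leaving out any of 7 of the 10 arrays in turn (adjusted p up to 0.221). Its SE and p rest on the same floored aspirin arrays.

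The other Cyp2c23 probe sets stayed under the background limit on all 12 arrays and were not called. One of them lay between -55.8 and 201.6 on the butyrate arrays, highest at 24 h, and the other between 67.5 and 147.3. Beside the late Cyp2c23 values, the liver marker Serpina1 read 1455.7 with butyrate at 24 h, against 102.6 in untreated cells at 24 h, on its brightest probe set. The liver marker Apoc3, above background on 10 arrays on 1 probe set, read between 694.3 and 1251.6 with butyrate. That probe set read between 194.3 and 673.2 with aspirin, and 1206.9 and 1241.9 in untreated cells. The summed hepatocyte markers ran between 2424 and 6132 with butyrate, between 1625 and 2890 with aspirin and between 3042 and 3320 in untreated cells. Alb, Apoa1 and Ttr were under the background limit on all 12 arrays. Of the fibroblast genes, 1 probe set of Col1a1, a collagen chain, read 235.3, 515.1, 797.3, 870.8 and 1615.4 over the hours of butyrate, between 58.4 and 123.2 with aspirin, and 159.0 and 113.8 in untreated cells, while its 3 other probe sets read 801.6 at most with butyrate and 676.9 at most in untreated cells. The summed fibroblast and smooth muscle markers ran between 5679 and 7566 with butyrate, between 3421 and 5976 with aspirin and between 6460 and 6964 in untreated cells. The part of these markers in the Cyp2c23 values was not tested.

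Among the uncalled members, Cyp2a2, a male-specific steroid hydroxylase of rat liver, had the largest negative change with butyrate, -1.30 ± 0.43 on the log2 scale (SE, limma adjusted p = 0.0628). It read 44.9, 120.7, 77.0, 131.2 and 141.6 with butyrate and 303.2 and 254.7 in untreated cells. All these values were under the limit. Cyp11a1, which cuts the side chain of cholesterol, stood at 0.96 ± 0.38 (adjusted p = 0.111). Sult1b1 stood at -0.92 ± 0.51 (adjusted p = 0.259). Among the families with no call, the log2 changes lay between -0.41 and 0.31 for the glucuronosyltransferases, between -0.92 and 0 for the sulfotransferases, between -0.28 and 0.32 for P450 family 4 and between -0.45 and 0.96 for the sterol and vitamin P450s. In 3 member probe sets all butyrate arrays were higher than both untreated arrays (14.7% of all probe sets tested), and in 3 all were lower (13.2%).

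Aspirin was compared with the same 2 untreated arrays in the same fit. No enzyme was called in either direction, 0 of 62 probe sets, beside 0.147% of all probe sets tested (0.0817% higher and 0.0654% lower). At an unadjusted p under 0.05, 3 members and 10.7% of all probe sets passed. By family the log2 changes with aspirin lay between -0.68 and 0.82 for the aldehyde dehydrogenases, between -0.78 and 0.55 for P450 families 1 to 3, between -0.87 and 0.48 for P450 family 4, between -0.32 and 0.31 for the sterol and vitamin P450s, between -0.17 and 0.70 for the glucuronosyltransferases and between -0.67 and 0.33 for the sulfotransferases. The median log2 change was -0.0231 over the tested members and -0.0385 over all. All aspirin arrays were higher than both untreated arrays in 3 members (3.81% of all) and lower in 4 (7.78% of all).

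The brighter Aldh7a1 probe set had a log2 change with aspirin of 0.54 ± 0.20 (SE, limma adjusted p = 0.402). Without the 24 h untreated array its adjusted p was 0.00649 and 2 members were called. Aldh3a2 stood at 0.82 ± 0.38 (adjusted p = 0.46) on M73714_at, with no aspirin array above background. Aldh6a1 read 383.1, 464.2, 403.7, 544.9 and 584.6 with aspirin and 712.8 and 792.1 in untreated cells, all 5 aspirin arrays being lower. Its log2 change was -0.68 ± 0.37 (SE, limma adjusted p = 0.524).

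No enzyme had a called slope over the hours of aspirin, beside 1.65% of all probe sets tested (1.32% rising and 0.327% falling), and 7 members passed at an unadjusted p under 0.05 (19.7% of all). The steepest was that of Cyp3a9, 0.48 ± 0.10 log2 units per doubling of the hours (SE, limma adjusted p = 0.06), which was called in 3 of 17 alternatives. With butyrate its slope was 0.25 (adjusted p = 0.188).

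**Figure D4:**
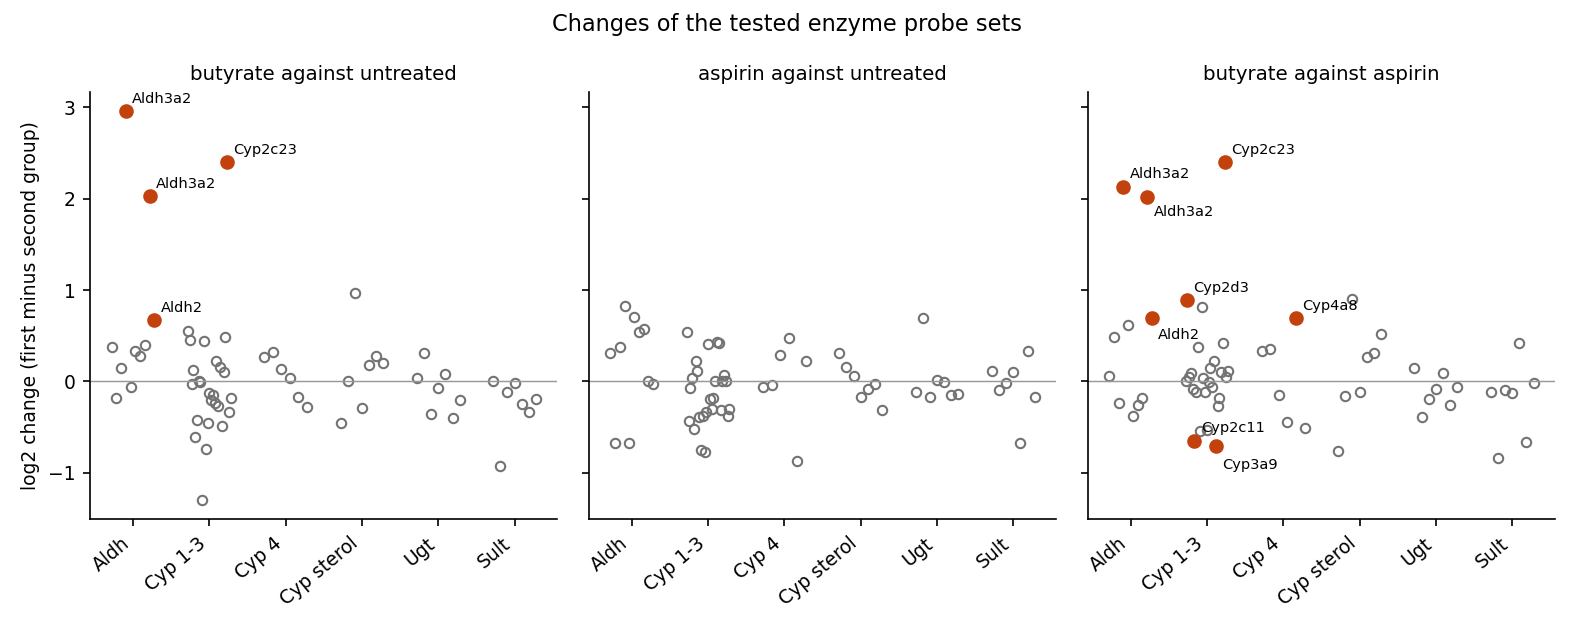
Log2 change (first minus second group) of the 62 tested enzyme probe sets by family in 3 comparisons, 1 point per probe set. Filled and named points passed the adjusted threshold of 0.05. The upper points are Aldh3a2 and Cyp2c23 under butyrate, the middle panel has no filled point, and Cyp3a9 and Cyp2c11 are the filled points below 0 in butyrate against aspirin.

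Butyrate and aspirin were then compared at matched hours, with time as a block on the 10 treated arrays. With butyrate 6 member probe sets were higher and 2 lower than with aspirin, 8 of 62, beside 25.2% of all probe sets tested (15.6% higher and 9.61% lower). At an unadjusted p under 0.05, 15 members and 40.5% of all probe sets passed. The median log2 difference was -0.014 over the tested members and 0.0979 over all probe sets tested. Quantile normalisation gave a split of 4 higher and 5 lower, and median centring 3 higher and 15 lower.

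Aldh3a2 was higher with butyrate by 2.13 ± 0.27 log2 units on M73714_at (SE, limma adjusted p = 0.00772) and by 2.02 ± 0.24 on rc_AA996484_g_at (adjusted p = 0.00687). With the aspirin arrays at their limits these were at least 1.51-fold and at least 1.17-fold. Both calls held in all 18 alternatives of this comparison, and only on these 2 probe sets, 2 of 62 members beside 10.3% of all, did every butyrate array exceed every aspirin array. In 2 uncalled members, the brighter Aldh7a1 probe set and 1 of Cyp2e1, every butyrate array was lower (5.3% of all). Aldh2 was higher by 0.70 ± 0.10 (SE, limma adjusted p = 0.0103), 1.62-fold, a call lost in 5 of 18 alternatives. Cyp2c23 was higher by 2.40 ± 0.57 (adjusted p = 0.0307) and at least 1.02-fold. That call too is of a probe set that entered the test only through its butyrate arrays, and it was lost in 10 of 18 alternatives, among them the fit with no filter (adjusted p = 0.0886).

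Cyp3a9 is a steroid-hydroxylating P450 of the family that clears many drugs, placed by RefSeq at chr12:21919955-21960160 of GRCr8 on the minus strand. The 250 bases before the gene, at chr12:21960161-21960410, are shown because Cyp3a9 was the bright P450 that differed between the drugs. The capitals mark a CCAAT box read on the opposite strand, which 34.0% of the promoters held in a window of this length. The other 4 motifs are not in it.
Cyp3a9: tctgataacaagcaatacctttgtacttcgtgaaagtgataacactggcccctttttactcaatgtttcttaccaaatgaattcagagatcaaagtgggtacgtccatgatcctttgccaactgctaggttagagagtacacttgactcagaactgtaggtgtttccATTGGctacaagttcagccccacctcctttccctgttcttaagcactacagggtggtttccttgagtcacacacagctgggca

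Cyp3a9 read 2612.2, 1983.0, 2996.0, 4447.6 and 4195.0 with butyrate, 2633.0, 3710.8, 6835.6, 5701.3 and 8820.3 with aspirin, and 3558.1 and 3954.7 in untreated cells. The drugs were close at 2 h, and the aspirin array was higher at each later hour. The log2 difference of butyrate from aspirin was -0.71 ± 0.19 (SE, limma adjusted p = 0.0443), with 1.63-fold more in aspirin cells. The call was lost in 12 of 18 alternatives, with adjusted p between 0.0087 and 0.156.

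The last 3 calls were for members under the background limit on all 12 arrays, so that no fold can be given. Cyp2c11, a male-specific P450 of rat liver, differed by -0.65 ± 0.17 (SE, limma adjusted p = 0.0407). It read 68.6, 147.5, -28.8, 123.9 and 116.6 with butyrate and 153.7, 167.7, 197.1, 228.7 and 143.0 with aspirin, and the ranges overlapped. Cyp2d3 differed by 0.89 ± 0.24 (adjusted p = 0.0431), and read 157.4, 290.5, 285.3, 180.3 and 207.0 with butyrate and 124.1, 88.5, 239.2, -91.4 and 33.5 with aspirin.

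The dimmer Cyp4a8 probe set, for a fatty acid hydroxylase, differed by 0.70 ± 0.19 (adjusted p = 0.0439). It read 194.9, 373.3, 265.1, 234.0 and 280.3 with butyrate and 35.5, 282.6, 160.2, 197.3 and 139.4 with aspirin. All 3 pairs of ranges overlapped, and these calls were lost in 13 of 17, 14 of 17 and 17 of 18 alternatives for Cyp2c11, Cyp2d3 and Cyp4a8 in that order.

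Genes that serve these enzymes with electrons, cofactors or regulation, and the other enzymes of aldehydes and foreign compounds, were described from a list of 52 genes, of which 35 were on the array with 65 probe sets and 45 probe sets of 25 genes were tested. Against untreated cells 5 probe sets of 4 genes rose with butyrate and 1 fell (6 of 45, beside 11.7% of all probe sets tested), and none was called with aspirin (0.147% of all). Against aspirin 11 probe sets of 6 genes were higher with butyrate and 4 lower (15 of 45, beside 25.2% of all). The median log2 change of the list with butyrate against untreated cells was 0.234, against 0.000854 over all probe sets tested.

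Por, the reductase that supplies the P450s of the endoplasmic reticulum with electrons, rose with butyrate. Its probe set E01524cds_s_at read 1687.7, 4038.6, 3850.4, 3155.8 and 2979.2 with butyrate, 630.5, 668.5, 976.5, 1224.8 and 1200.1 with aspirin, and 954.1 and 697.1 in untreated cells. Every butyrate array was above every other array. The log2 change from untreated cells was 1.88 ± 0.36 (SE, limma adjusted p = 0.00663), 3.69-fold, and it was not called with the 2 and 24 h arrays alone or without the 24 h untreated array. Of the other Por probe sets, 1 changed by 1.04 (adjusted p = 0.0273), a call lost in 9 of 21 alternatives, and 1 stood at 0.74 (adjusted p = 0.0628). All 3 were higher with butyrate than with aspirin, by 1.73, 1.29 and 1.03 (limma adjusted p = 0.00756, 0.0203 and 0.0218). The first of these 3 calls held in all 18 alternatives, and the others were lost in 8 and 10 of 18.

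Papss1 makes the activated sulfate that sulfotransferases transfer. It read 3371.5, 5612.4, 5629.4, 6178.1 and 6207.2 with butyrate, 1770.9, 1535.8, 2387.6, 2874.0 and 2416.1 with aspirin, and 2373.2 and 2262.8 in untreated cells. The butyrate arrays lay above all others, by a log2 change of 1.19 ± 0.27 from untreated cells (SE, limma adjusted p = 0.0157) and 1.30 ± 0.15 from aspirin (adjusted p = 0.00632). The first call was lost without either untreated array and with the 2 and 24 h arrays alone, and the second held in all 18 alternatives.

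Ugdh makes the UDP-glucuronic acid used by glucuronosyltransferases. It read 6137.0, 5882.6, 2795.9, 2811.5 and 1865.5 over the hours of butyrate, 4555.6, 4824.6, 5219.3, 3980.3 and 2732.0 over those of aspirin, and 5710.2 and 6054.8 in untreated cells. Its level fell by 0.49 log2 units per doubling of the hours of butyrate (SE 0.11, limma adjusted p = 0.0321), a call lost in 8 of 17 alternatives. Butyrate was not called different from untreated cells (-0.75, limma adjusted p = 0.236) or from aspirin (-0.25, adjusted p = 0.44). The other Ugdh probe set, under the background limit on every array, had an uncalled slope with butyrate of -0.19 (adjusted p = 0.151).

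**Figure D5:**
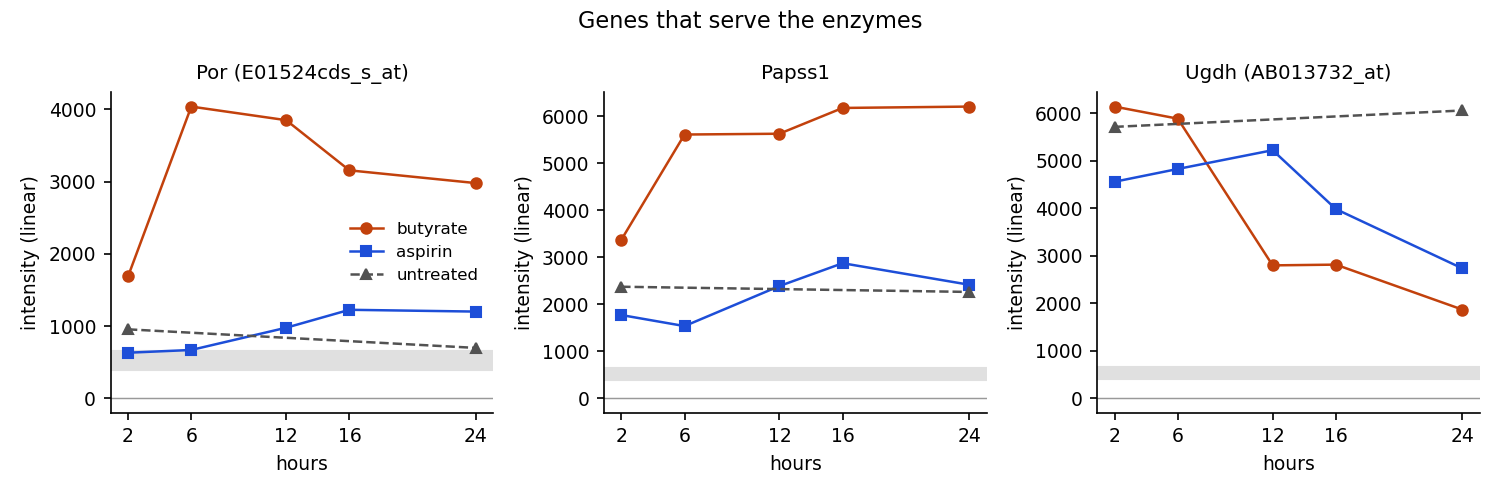
Linear intensity against hours for Por, Papss1 and Ugdh on arrays with butyrate (orange circles), aspirin (blue squares) and untreated cells (grey triangles), with the background limits as a grey band. Por and Papss1 are higher on all 5 butyrate arrays than on any other array. Ugdh reads 1865.5 at 24 h of butyrate against 6054.8 in untreated cells at 24 h, and was not called in butyrate against untreated cells.

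The carbonyl reductase Cbr1 rose with butyrate by 0.95 ± 0.27 log2 units from untreated cells (SE, limma adjusted p = 0.0372), and the aldehyde reductase Akr1a1 fell by 0.61 (SE 0.18, adjusted p = 0.044). These calls were lost in 13 and 17 of 21 alternatives. Hsd11b2, which inactivates glucocorticoids, was called higher (adjusted p = 0.0154), but only 2 butyrate arrays were above background and no fold can be given. Its aspirin and untreated arrays were all at the floor, so it too passed the filter only through butyrate, and with no filter the adjusted p was 0.0506. Between the drugs, Maoa was higher with butyrate on 2 probe sets by 0.97 and 0.81 (adjusted p = 0.0162 and 0.0389), calls lost in 6 and 14 of 18 alternatives. The cytochrome b5 reductase Cyb5r3 was higher on 3 of 5 probe sets, by 0.51, 0.78 and 0.59, calls lost in 8, 12 and 14 of 18, and its other probe sets stood at 0.13 and -0.02.

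Akr1b1, the aldose reductase, was lower with butyrate than with aspirin by a log2 difference of -0.42 ± 0.09 (SE, limma adjusted p = 0.0223), and Cyb5b by -0.96 ± 0.25 (adjusted p = 0.0377). These calls were lost in 8 and 10 of 18 alternatives. The other probe set of each gene, above background on all 12 arrays, stood at -0.34 and -0.46 and was not called (adjusted p = 0.291 and 0.109). On 1 probe set each, Nat2 was called lower and Ephx2 higher with butyrate than with aspirin, with no fold bound above 1, calls lost in 4 of 18 and 15 of 17 alternatives. Uncalled probe sets of the same genes stood at 1.22 and -0.51 for Nat2 and at -0.32 and -0.04 for Ephx2. Over the hours, 5 probe sets of the list rose and 3 fell with butyrate (8 of 45, beside 8.99% of all), and 3 rose and 1 fell with aspirin (4 of 45, beside 1.65% of all). Those that rose with butyrate include Xdh and Hsd11b2, which were at the floor on every aspirin and untreated array. Both passed the filter only through butyrate, so their calls are a description and not support. With no filter the Hsd11b2 slope was not called (limma adjusted p = 0.0768). Over the hours of aspirin, Cebpb, a transcription factor of the acute phase, rose on 2 probe sets by 0.57 and 0.91 log2 units per doubling (adjusted p = 0.0154 and 0.0215), and Hsd11b1, which regenerates glucocorticoids, by 0.80 (adjusted p = 0.0168). In that order, the 3 calls were lost in 1, 4 and 3 of 17 alternatives. Hsd11b1 read 123.8, 211.0 and 393.6 at 2, 6 and 12 h of aspirin, each under its background limit, and 612.3 and 899.6 at 16 and 24 h. It also rose over the hours of butyrate, by 0.37 (limma adjusted p = 0.0476), a call lost in 13 of 17 alternatives. The cytochrome b5 gene Cyb5a fell over the hours of aspirin by 0.33 on 1 probe set (limma adjusted p = 0.0228), a call lost in 5 of 17 alternatives. Its other tested probe set, above background on all 12 arrays, had a slope of -0.06 (adjusted p = 0.945).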

How the data were processed

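RNA of CC531 cells was measured on 12 arrays, whose groups and hours came from the sample titles. The authors deposited 1 table of intensity values on a linear scale, negative values included, for 8799 probe sets, of which 59 are controls. How that signal was background-corrected and scaled, and with which software, is not given in the sources used here. All 76 member genes matched the RefSeq gene table by gene number.

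Values were raised to a floor of 90.91, the size of the 10th percentile of all values, and put on the log2 scale. The 2622 probe sets with mean log2 under the 30th percentile (6.54) were not tested, which left 6118. Tests used limma 3.58.1 in R 4.3.3 (lmFit, then eBayes with a variance trend) with Benjamini-Hochberg adjustment over all 6118. Group changes came from 1 fit of all 12 arrays, differences between the drugs from the arrays of both drugs with each hour as a block, and slopes from a line over log2 hours for each drug. The block rests on the labelled hours, since both drugs were sampled at the same 5 times. A called probe set that was not above background in 1 group was given a bound, the mean log2 of the brighter group against each dim array's limit. The number of arrays limits the precision.

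Alternatives were other floors, quantile normalisation, median centring, other filters, no variance trend, hours in the fit, each array left out in turn and other background limits. The test of the difference between slopes was added after seeing the data. Members, gene lists, tests and alternatives were chosen with earlier results of these data known. Full values were given for members called in any comparison or above background on all 12 arrays, with at most 8 uncalled members of the largest change per comparison named, and only called genes of the list of partner genes. The limma steps were tested on simulated data. Promoter sequences are from RefSeq (GRCr8), whose table held 59 of the 76 member genes. Figures were drawn with matplotlib 3.10.9.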

Additional observations from a re-analysis of the deposited data

Results flagged for a closer look

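The Aldh7a1 value of 3408.4 on the 16 h aspirin array stood apart from the other aspirin arrays, which lay between 2933.3 and 2993.8. Its gap to the nearest of them was 0.873 of the group's range, above Dixon's critical value of 0.71 for 5 samples. It was the 1 array so marked among 22 groups examined, and chance marks about 1 in 20.

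The slope of Cyp2c23 over log2 hours differed between the drugs, being higher with butyrate than with aspirin by 1.048 log2 units per doubling of the hours (SE 0.171, limma adjusted p = 0.032). The aspirin values were all at the floor, so that their fitted slope is 0 by construction and they add no spread to the fit. The difference was called in 3 of the 10 fits that left out 1 array, and it is a description and not support.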

How the results depend on the processing

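The counts of called members moved with the settings. With butyrate against untreated cells, 2 members were called with the floor at the size of the 5th percentile, with no filter and with no variance trend, and 0 with the 2 and 24 h arrays alone, where fewer arrays enter. Butyrate against aspirin gave 3 with the 5th percentile floor or no filter and 18 (3 higher, 15 lower) with median centring, which put the median change of all probe sets at -0.22, against 0.10 in the values reported. The slope with butyrate gave 2 with either other floor, quantile normalisation, median centring, the 50th percentile filter or no trend. The slope with aspirin gave 2 with the 25th percentile floor and 1 with quantile normalisation, no filter or the 50th percentile filter. Leaving out each array in turn gave 2 to 5 calls for butyrate against untreated cells (2 without the butyrate array at 12, 16 or 24 h, the aspirin array at 2, 6 or 16 h, or the untreated array at 2 h), 0 to 2 for aspirin against untreated cells (2 without the 24 h untreated array), 2 to 7 between the drugs (2 or 3 without any array from 6 to 24 h), 1 to 2 for the slope with butyrate (1 other than Cyp2c23 without the 2 h butyrate array), 0 to 1 for the slope with aspirin and 5 to 6 members above background on all arrays. Over all probe sets tested, the same fits gave 310 to 1166 and 1 to 306 calls for butyrate and aspirin against untreated cells. They gave 241 to 1645 between the drugs, and 81 to 541 and 6 to 231 for the slopes with butyrate and aspirin. Of all non-control probe sets, 2029 to 2103 were above background on all arrays. Counts over all probe sets at the other settings are not given here. The one result that turned round was a shared Ugt1a probe set between the drugs, at -0.25 with median centring. Without the replicate block, hours being left out of the fit, 6 members were called between the drugs, 5 of them among the 8. With the background limit at the 0.5th percentile 3 members were above it on all arrays, and at the 2.5th percentile 10. Beside the median shift and the smaller sets of arrays, the cause of these changes was not tested. With 1 array per treatment and time and 2 untreated arrays, members near the limit have little signal over background, and the 4.07% of members above it on all arrays rests on a limit drawn from negative values.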

Other observations

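The shared glucuronosyltransferase probe sets lay outside the members because they name several Ugt1a genes, whose transcripts share their last exons. Of the 12 such probe sets 4 were above background on all 12 arrays and 5 on none. One of the 4 read 3730.7, 2931.4, 2778.5, 2873.1 and 3676.8 after 2, 6, 12, 16 and 24 h of butyrate, 2564.6, 2017.1, 1869.9, 2123.3 and 3068.7 with aspirin, and 4767.4 and 4327.0 in untreated cells, so that both untreated arrays lay above every treated one. A second read 4281.9, 3122.8, 2946.9, 2737.9 and 3137.6 with butyrate, 2325.7, 840.6, 1901.0, 1707.5 and 3088.5 with aspirin, and 6125.2 and 4185.2 in untreated cells.

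The 4 had log2 changes between -1.48 and -0.54 with aspirin against untreated cells (limma adjusted p between 0.197 and 0.404), none called. All 4 were under an unadjusted p of 0.05, beside 10.7% of all probe sets tested. Each of the 4 names 8 genes, so their signals may be shared and they do not count as separate results. With butyrate against untreated cells the changes lay between -0.66 and -0.48 (adjusted p between 0.126 and 0.379), none called, with 2 under an unadjusted p of 0.05 (28.8% of all). Between the drugs 2 of the 4 were called higher with butyrate, beside 15.6% of all probe sets tested. The differences were 0.47 ± 0.09 (SE, limma adjusted p = 0.0179) and 0.82 ± 0.17 (adjusted p = 0.0214), calls lost in 8 and 7 of 18 alternatives. Among the other Ugt1a probe sets, 1 was called lower with butyrate than in untreated cells (-1.76 ± 0.50, adjusted p = 0.0385), a call lost in 14 of 21 alternatives. It read 342.5, 140.3, 117.9, 167.8 and 160.0 with butyrate, 185.9, 120.9, 97.0, 61.8 and 156.4 with aspirin, and 1133.8 and 298.7 in untreated cells, the 2 h untreated array alone being above background. Another, under the limit on all 12 arrays, had a called falling slope with butyrate (-0.35 ± 0.07 per doubling of the hours, adjusted p = 0.0193), a call lost in 5 of 16 alternatives. These 2 probe sets were followed through the alternatives after their values were seen. Of the other 20 enzyme probe sets that name several symbols none was above background on all 12 arrays and 18 were above it on none.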
